A study of Mus musculus with 4 samples.

Results

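N6-methyladenosine (m6A) sites to which the deposited tables give no gene name, and which lie in sequence not marked as repeat, made up 10003 of the 25595 distinct sites in the series. They are the entries with the word ELSE in place of a gene and a 3-mer (the site's base with its neighbours) that is not all in lower case. Lower case is the usual mark of repeats in a genome file, so entries all in lower case, called soft-masked below, were set apart. The chosen sites are called unnamed sites here and filled 15054 of 34741 table entries, with 5260 in the library labelled astrocyte 1, 3246 in astrocyte 2, 3481 in microglia 1, and microglia 2 had 3067. Of these entries 1.37% to 1.66% per library had a 3-mer of mixed case, at the edge of a masked stretch, and 5 lay on contigs or the mitochondrial genome.

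The study sorted cells from the cortex of mice of the genotype APOBEC1-YTH, in which an editing enzyme acting on cytidine is joined to a domain that binds m6A, and both cell types carried it. Tamoxifen (20 mg/kg at intervals of 24 hours over 5 days) was begun at 10 weeks of age, and collection followed 7 days after the last dose. Astrocytes were taken by an antibody to ACSA2 and microglia by one to CD11b, with 2 libraries of each type. The promoter or Cre line that drives the transgene, and whether libraries came from separate animals, are not stated in the labels. P-values below therefore measure the spread between these libraries, which may be technical.

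m6A is written in the nucleus on newly made RNA by the METTL3 and METTL14 enzyme pair, mainly where a purine precedes the adenosine and a cytosine follows it. Because the mark is placed while transcription proceeds, unspliced RNA can carry it as well as mature messenger RNA. GLORI, the method used here, converts unmethylated adenosine so that it is read as G, and the level of a site is the share of reads that still show A. The tables hold this level as a fraction, given here as a percent, and no read counts. Read depth is unknown, so no level has a counting interval, and a site missing from a table may be unmethylated, unread or under a threshold.

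The marker genes of the cell types were checked before any comparison. Among 20 astrocyte markers, 18 had a named-gene site in astrocyte 1, 1 in astrocyte 2, 0 in microglia 1, and microglia 2 had 15. Among 20 microglia markers the numbers were 2, 16, 16 and 1 in the same order. The libraries labelled astrocyte 2 and microglia 2 thus ran against their labels, so differences between types are given as labelled, and the summaries and the largest site differences also for the replicate 1 libraries alone. Oligodendrocyte markers had sites in 6 of 8 genes in astrocyte 1 and in microglia 2 and in 0 of 8 in the others, and at most 2 of 8 neuron or vascular markers had a site in any library. Their part in the results was not tested.

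The sequences that the tables print beside unnamed sites were of 2 kinds when read without case, and no longer stretch of mm39 was used here:
purine G before the site: GAC
purine A before the site: AAC

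Unnamed sites carried the GAC 3-mer less often than sites in named genes. The GAC share of unnamed sites was 45.8% in astrocyte 1, 44.3% in astrocyte 2, 40.4% in microglia 1, and microglia 2 had 44.5%. In named genes the shares were 67.6%, 65.0%, 56.8% and 69.4% in the same order. The groups did not overlap, and the difference was -21.0 percentage points on average, with unnamed sites lower in each of 4 libraries. An exact two-sided sign-flip permutation test over 4 libraries gave p = 0.125, the smallest p it can give, and the same p holds for every contrast below that has 1 direction in all 4 libraries. Soft-masked sites without a gene name held GAC at 36.4% to 41.8%, below the unnamed sites in each of 4 libraries (by 4.28 points on average, exact sign-flip p = 0.125, adjusted p = 0.198 over 19 contrasts added after the data were seen). A total of 5 contrasts of unnamed with named-gene sites were set out in this way, and the Benjamini-Hochberg adjusted p of each was also 0.125.

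Of the 5 contrasts, full level was the one in which unnamed sites stood farthest from named-gene sites. A full level, meaning 100% of reads still showing A, was listed at 3811 of the 5260 unnamed sites of astrocyte 1, or 72.5% (exact Clopper-Pearson 95% interval 71.2 to 73.7%, which covers counting of sites only). In astrocyte 2 it was 79.5% (78.1 to 80.9%), in microglia 1 89.9% (88.9 to 90.9%) and in microglia 2 72.4% (70.8 to 74.0%). Most unnamed sites in each library were therefore listed with no converted read. In named genes full-level sites made up 27.3%, 37.9%, 60.3% and 15.3% in the same order. The difference averaged 43.4 points and was positive in each of 4 libraries (exact sign-flip p = 0.125). Soft-masked sites without a gene name stood at 74.1%, 80.6%, 88.3% and 75.4%, and unnamed sites differed from them by -1.03 points on average, with 1 of 4 libraries higher (exact sign-flip p = 0.375, adjusted p = 0.375 over the 19 contrasts).

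**Figure D1:**
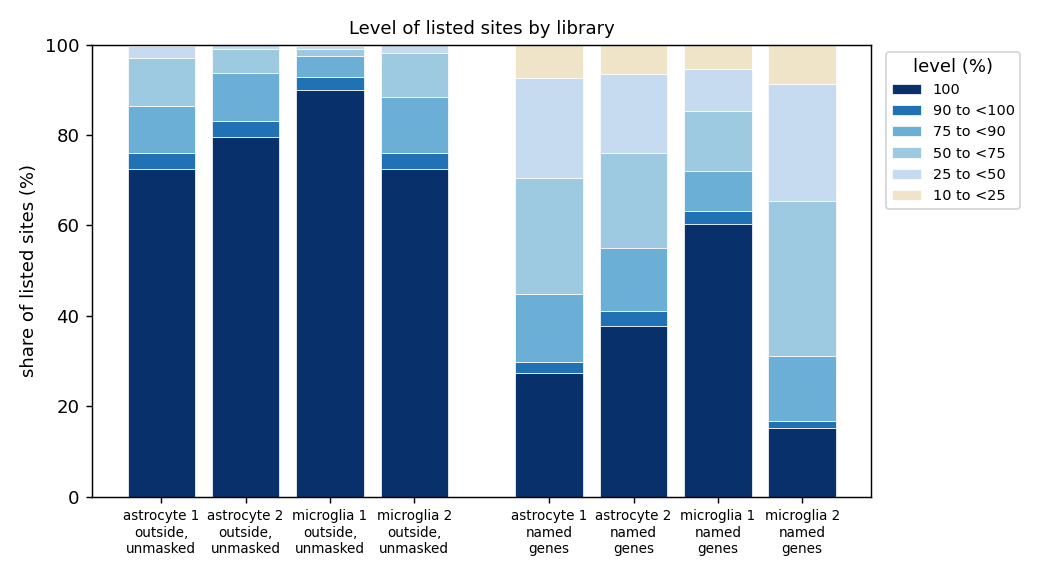
Share of listed sites (y axis, percent) in each range of level, for unnamed unmasked sites (left 4 bars) and named-gene sites (right 4 bars) of each library. The dark lower block, full-level sites, spans 72.4% to 89.9% of unnamed sites and 15.3% to 60.3% of named-gene sites.

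Partial levels, those below 100%, were also high among unnamed sites. Their median was 75% in astrocyte 1, 80% in astrocyte 2, 83.3% in microglia 1, and microglia 2 had 80%, against 53.9%, 57.1%, 60% and 50% for partial sites in named genes. The medians did not overlap, and the difference averaged 24.3 points (exact sign-flip p = 0.125, higher in 4 of 4 libraries). Soft-masked sites without a gene name had similar partial medians, at 80%, 83.3%, 83.3% and 80% in the same order. Levels under 25% were listed at 14 of 1449 partial unnamed sites of astrocyte 1, 0 of 665 in astrocyte 2, 7 of 350 in microglia 1, and microglia 2 had 5 of 847. In named genes between 10.1% and 13.7% of partial sites lay in that range. A few values recurred: 80% was the most frequent partial level of unnamed sites in every library, at 198, 95, 44 and 165 sites, and the 5 most frequent values held 36.3% to 47.5% of partial unnamed sites. The corresponding share in named genes was 29.0% to 38.3%.

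Partial and full unnamed sites differed in sequence. GAC made up 51.3% of partial and 43.7% of full sites in astrocyte 1, 50.5% and 42.7% in astrocyte 2, 41.1% and 40.3% in microglia 1, and 49.0% and 42.7% in microglia 2. The partial sites were higher in 4 of 4 libraries, by 5.61 points on average (exact sign-flip p = 0.125, adjusted p = 0.198 over the 19 contrasts), though in microglia 1 the gap was under 1 point. Even partial unnamed sites stayed below the GAC share of partial named-gene sites, which was 64.8% to 70.3%.

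Strand was uneven. The plus strand held 59.0% of unnamed sites of astrocyte 1, 57.0% in astrocyte 2, 61.3% in microglia 1, and microglia 2 had 59.7%, and the exact 95% intervals of all 4 lay between 55.3% and 62.9%. In named genes the plus strand held 51.7% to 52.7%. The difference averaged 7.03 points and had 1 direction in all 4 libraries (exact sign-flip p = 0.125, adjusted p = 0.198). Soft-masked sites leaned further, with 61.3% to 63.4% on the plus strand. The excess was present in full-level unnamed sites at 56.8% to 60.7% and in partial ones at 57.6% to 66.6%. Most distinct unnamed sites lay on the plus strand on each of chromosomes 1 to 19 and X, from 52.3% on chromosome 11 to 65.7% on chromosome 16. Chromosome 11 thus stood within the range of named-gene sites over all chromosomes, and strand was not compared with named-gene sites by chromosome.

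**Figure D2:**
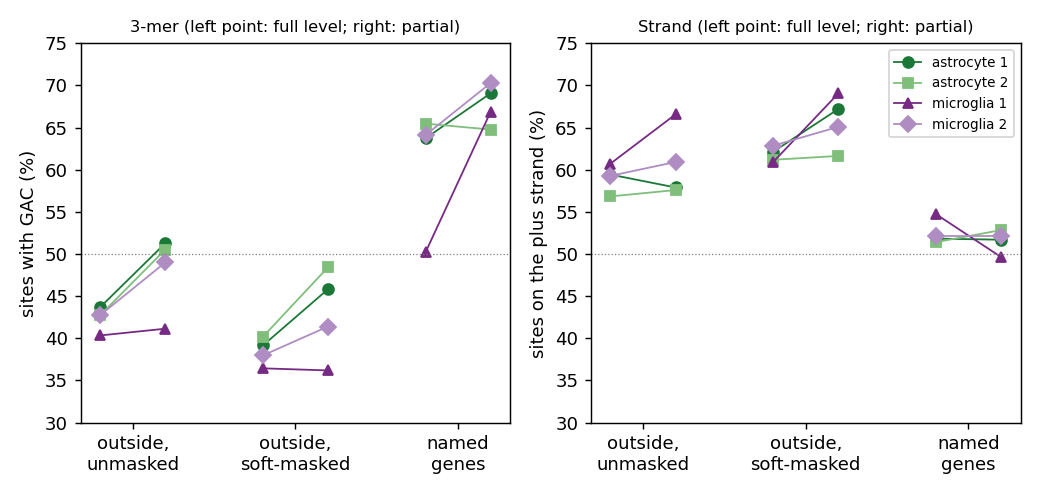
Share of sites with the GAC 3-mer (left panel) and on the plus strand (right panel), in percent, for full-level sites (left point of each line) and partial sites (right point), by library and class. Within each library and level class, unnamed and soft-masked sites lie below named-gene sites in GAC and above them in plus-strand share.

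Unnamed sites were rarely close to each other. Another unnamed site of the same library and strand lay within 100 nucleotides for 1.81% of them in astrocyte 1, 1.51% in astrocyte 2, 0.804% in microglia 1, and microglia 2 had 0.848%. For named-gene sites, measured in the same way, the shares were 9.79%, 10.4%, 4.78% and 9.25%. The difference averaged -7.31 points (exact sign-flip p = 0.125, lower in 4 of 4 libraries). Soft-masked sites, measured among themselves, were also rarely clustered, at 1.4%, 1.2%, 1.1% and 1.7% in the same order. On the opposite strand no unnamed site had another within 100 nucleotides in any library. The median distance to the next unnamed site on the same strand was 209 kb in astrocyte 1, 323 kb in astrocyte 2, 447 kb in microglia 1 and 446 kb in microglia 2. For named-gene sites it was 26.6, 86.4, 757 and 34.0 kb, and these distances also follow the number of sites in a list.

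Over the 4 libraries together, 93 clusters (sites on 1 strand with gaps of at most 100 nucleotides) held 189 distinct unnamed sites. There were 90 pairs and 3 triples, with a median span of 30 nucleotides. In 55 clusters all sites came from 1 library, and 9 had a site in each of 4. The triple with only partial levels lay on the plus strand of chromosome 13, where positions 24985350, 24985368 and 24985438, all GAC, stood at 70%, 80% and 55.9% in astrocyte 1 and were not listed elsewhere. A triple on chromosome 18 (plus strand) at 32550815, 32550848 and 32550868 had 100%, 81.8% and 81.8% in astrocyte 2 alone. The third triple, chosen after its values were seen, spanned 40123264 to 40123414 of chromosome 17 (plus strand), with 2 of its sites in astrocyte 1 and 1 in each other library. On the minus strand of chromosome 11 the GAC positions 86248753 and 86248765 stood at 21.6% and 35.8% in microglia 2, and the second was listed at 37.5% in astrocyte 1. The pair on chromosome 11 (plus strand) at 4200416 and 4200456 was listed in all 4 libraries, at 100% throughout except for 96.2% at the second position in microglia 2. Clusters thus included both recurrent full-level pairs and partial ones of a single library.

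Partial unnamed sites lay within 10 kb of a named-gene site more often than full ones. On the same strand, a named-gene site of the same table lay within 10 kb of 10.7% of partial and 3.70% of full sites in astrocyte 1, 9.47% and 3.87% in astrocyte 2, 1.71% and 0.479% in microglia 1, and 10.2% and 2.03% in microglia 2. The share was higher for partial sites in 4 of 4 libraries, by 5.49 points on average (exact sign-flip p = 0.125, adjusted p = 0.198), though microglia 1 had only 6 partial and 15 full sites in that range. The median distance to a named-gene site on the same strand was shorter for partial sites in 3 libraries, and in microglia 1 it was longer, at 1953 kb for partial and 1837 kb for full sites. On the opposite strand the order turned: 1.66%, 1.20%, 0.571% and 0.472% of partial sites lay within 10 kb, against 2.26%, 1.24%, 0.735% and 2.43% of full sites. The difference averaged -0.690 points (exact sign-flip p = 0.125, adjusted p = 0.198). It rests on only 24, 8, 2 and 4 partial sites, and in astrocyte 2 the shares were almost equal. Microglia 1, with 1066 named-gene sites against 2348 to 4790 in the others, had the fewest sites to be near to. With named-gene sites of all 4 libraries pooled, an alternative added after the data were seen, 8.84%, 10.3%, 3.50% and 7.86% of all unnamed sites lay within 10 kb.

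For all unnamed sites the shares within 10 kb were 5.63%, 5.02%, 0.603% and 4.27% on the same strand and 2.09%, 1.23%, 0.718% and 1.89% on the opposite strand. The same strand was higher in 3 of 4 libraries, by 2.40 points on average (exact sign-flip p = 0.25, adjusted p = 0.297), and microglia 1 went the other way. Sites within 10 kb resembled named-gene sites more than farther ones did. Full levels were listed at 47.6% of near and 73.9% of farther sites in astrocyte 1, 61.3% and 80.5% in astrocyte 2, 71.4% and 90.1% in microglia 1 (21 near sites), and 34.4% and 74.1% in microglia 2. GAC was more frequent among near sites by 12.8 points on average. Both differences had 1 direction in 4 of 4 libraries (exact sign-flip p = 0.125, adjusted p = 0.198). Near sites lay downstream of the named-gene site in 38.1% to 51.2% of cases.

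For some unnamed sites the word ELSE did not mean a position beyond the reach of a gene. The tables name 2277 genes with at least 2 distinct sites on 1 chromosome and strand, and the stretch between the outermost of these (median 4.34 kb) was taken as a lower bound of the gene's extent, a measure added after the data were seen. Between 2 such sites, on the gene's strand, lay 277 of 1449 partial unnamed sites in astrocyte 1 (19.1%), 84 of 665 in astrocyte 2 (12.6%), 9 of 350 in microglia 1 (2.57%) and 124 of 847 in microglia 2 (14.6%). On the other strand of the same stretches lay 0.690%, 0.451%, 1.14% and 0.944% of partial sites. The gene's strand was higher in 4 of 4 libraries, by 11.4 points on average (exact sign-flip p = 0.125, adjusted p = 0.198).

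Full-level unnamed sites showed less of this. On the gene's strand lay 4.01% of them in astrocyte 1, 5.39% in astrocyte 2, 1.47% in microglia 1, and microglia 2 had 2.39%, against 1.86%, 1.94%, 2.27% and 2.34% on the other strand, and the difference of 1.21 points did not have 1 direction (3 of 4 libraries, exact sign-flip p = 0.375, adjusted p = 0.375). Partial sites exceeded full ones on the gene's strand by 8.93 points on average, in 4 of 4 libraries (exact sign-flip p = 0.125, adjusted p = 0.198). The gap was widest in astrocyte 1. Without that library the stretches were redrawn from the named-gene sites of the 3 other libraries, so the measure itself changed. The difference was then 4.67 points, with the same direction in the 3 other libraries. No annotation of mm39 was used here, so exon, intron and untranslated positions were not assigned.

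**Figure D3:**
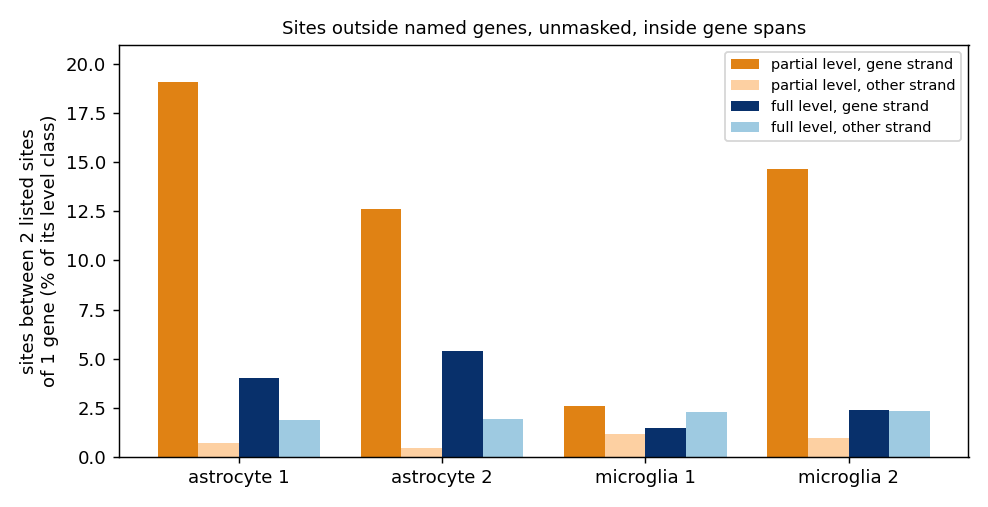
Share of unnamed sites (y axis, percent of the sites of that level class in the library) that lay between 2 listed sites of 1 gene, on the gene's strand and on the other strand, for partial and full levels. Partial sites on the gene's strand reach 19.1% in astrocyte 1 and 14.6% in microglia 2, and stand at 2.57% in microglia 1.

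Of the 10003 distinct unnamed sites, 824 lay inside such stretches on the gene's strand. These fell in 373 genes, led by long ones. The genes described were picked from their counts, as those with most, and carry no test. Gpc5, a heparan sulfate proteoglycan of the cell surface, had 17 over a stretch of 1155 kb on chromosome 14, against 2 on its other strand. By library Gpc5 had 10 in astrocyte 1, 3 in astrocyte 2, 1 in microglia 1, and microglia 2 had 6, and the site at 116387660 was listed in all 4, at 97.3%, 98.0%, 100% and 87.5%. Rora, a nuclear receptor, had 15 over 699.8 kb of chromosome 9, with 9 in astrocyte 1, 1 in astrocyte 2, 1 in microglia 1, and microglia 2 had 7. Both genes thus had most of their unnamed sites in astrocyte 1 and in microglia 2. Over all genes, such stretches held 430, 223, 55 and 177 unnamed sites, with the libraries in the order used above. Astrocyte 1 thus had the most over all genes too. Whether Gpc5 and Rora differed from other genes in this was not tested.

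Npas3, a transcription factor of the brain, had 13 unnamed sites over 820.6 kb of chromosome 12 and 0 on its other strand. Astrocyte 1 listed 9 of them, astrocyte 2 listed 0, microglia 1 listed 1 and microglia 2 listed 4. Of its 9 sites in astrocyte 1 none was full, and the lowest was 44.4% at position 53591406. Elmo1, an adaptor in the engulfment of dying cells, showed the other pattern, with 12 sites over 420.8 kb of chromosome 13: astrocyte 2 had 10, astrocyte 1 had 0, and each microglia library had 1. Its levels in astrocyte 2 ran from 38.5% at 20377825 to 100% at 5 of the 10 positions. Astrocyte 2 was the library labelled astrocyte that had sites in 16 of 20 microglia markers. Microglia 1, also with 16 of 20, had only 1 of the Elmo1 sites. A link between markers and Elmo1 sites was not tested.

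Sites within 10 kb of a named-gene site lay beside 491 genes, and 421 of these had 1 such site. Among the genes with most were Trim9, a brain ubiquitin ligase, with 6, the predicted gene Gm10832 with 5, and Laptm5 and Phlpp1 with 4 each. Trim9 had 5 in astrocyte 1, at 45.5% to 71.4%, and 1 in microglia 2, at 50%. Laptm5, a lysosomal membrane protein of blood cells and microglia, had 1 in astrocyte 2 and 3 in microglia 1, at 80% to 100%, where its own nearest sites stood at 21.6% to 31.7%. Phlpp1, a phosphatase of Akt, had 2 in astrocyte 1, both at 100%, and 2 in microglia 2, at 50% and 66.7%.

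Unnamed sites also lay beside some marker genes. Among all genes, 245, 147, 19 and 121 had an unnamed site within 10 kb, with the libraries in the order used above. The number of all genes with a named-gene site in each library is not given here, so these counts cannot be read as shares. Whether markers had such sites more or less often than other genes was not tested. In astrocyte 1, 7 of 20 astrocyte markers had an unnamed site within 10 kb, among them Slc1a2, the glutamate transporter, with 2 at 40% and 40.4% and Slc7a10, an amino acid transporter, with 2 at 85.7% and 66.7%. In microglia 2 there were 2, Fgfr3, a growth factor receptor, with a site at 57.1%, and Ntsr2, a neurotensin receptor, with one at 25%. Of 20 microglia markers, astrocyte 2 had such sites beside 4, among them C1qb, Fcrls and Sall1, astrocyte 1 and microglia 1 beside 1 each, and microglia 2 beside 0.

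Sharing between libraries was higher for unnamed than for named-gene sites. At least 1 other library listed the same base for 46.8% of unnamed sites of astrocyte 1, 38.5% in astrocyte 2, 63.7% in microglia 1, and microglia 2 had 63.0%, against 17.6%, 16.2%, 40.5% and 20.1% of named-gene sites. The difference averaged 29.4 points (exact sign-flip p = 0.125, higher in 4 of 4 libraries). This did not set them apart from soft-masked sites, of which 49.7%, 42.9%, 63.8% and 66.7% were in another library. Of the 10003 distinct unnamed sites, 7194 (71.9%) were in 1 library, 1242 in 2, 892 in 3 and 675 (6.75%) in all 4. Of distinct named-gene sites 90.3% were in 1 library and 0.783% in all 4.

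Full-level sites carried most of the sharing. In astrocyte 1, 55.6% of full and 23.6% of partial unnamed sites were in another library, in astrocyte 2 42.3% and 23.6%, and in microglia 2 73.8% and 34.7%. Microglia 1 did not show this, with 63.6% and 64.6%, and the mean difference of 22.2 points over 4 libraries gave an exact sign-flip p of 0.25 (adjusted p = 0.297). Partial sites of 2 libraries seldom coincided: the Jaccard index, shared sites as a percent of all distinct sites of a pair, was 3.88% to 7.74% for sites partial in both and 14.6% to 29.9% for sites full in both. Unnamed sites between 2 sites of 1 gene were shared at 6.51%, 7.62%, 45.5% and 13.6%, and those elsewhere at 50.4%, 40.8%, 64.0% and 66.0%.

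By pair, all unnamed sites had a Jaccard index of 14.1% for the astrocyte libraries and 28.6% for the microglia libraries. Astrocyte 1 reached 28.5% with microglia 1 and 25.0% with microglia 2, while astrocyte 2 reached 15.5% and 17.8% with the same libraries. The 3 pairs that include astrocyte 2 were the lowest, and the 3 others the highest. As a share of each list, the 1941 sites common to astrocyte 1 and microglia 1 were 36.9% of the first and 55.8% of the second. The mean was 21.4% for pairs with the same label and 21.7% for pairs with different labels (exact permutation p = 1 over the 3 ways to pair 4 libraries).

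**Figure D4:**
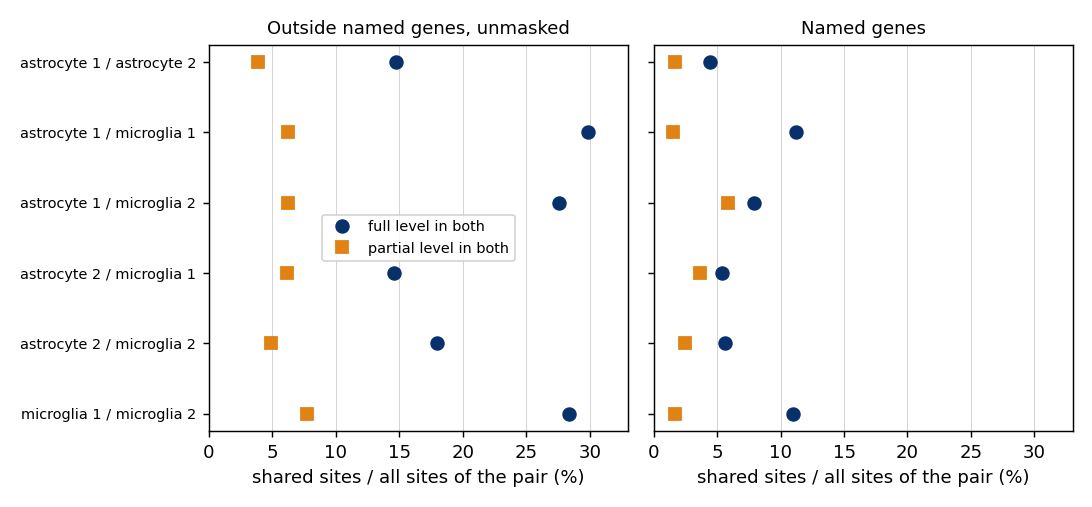
Jaccard index (x axis, shared sites as percent of all distinct sites of a pair) for the 6 pairs of libraries, for sites at full level in both and partial in both, among unnamed sites (left) and named-gene sites (right). Full-level unnamed sites reach 29.9%, partial ones 7.74%.

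Where a shared unnamed site was partial in both libraries of a pair, its 2 levels differed with an SD of 9.96 to 12.02 points, over 59 to 135 sites a pair. Pearson's r across sites was 0.78 to 0.90, a description only, since sites of a pair share their libraries. Most shared sites were full in both libraries. Of 1941 sites common to astrocyte 1 and microglia 1, 1598 were full in both, 105 partial in both, 90 full in astrocyte 1 alone and 148 full in microglia 1 alone. Sites partial in astrocyte 1 were thus more often full in microglia 1 (148) than partial there (105). For those partial in microglia 1, the numbers in astrocyte 1 were 90 and 105. The counts were not set against those of unrelated classes.

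The 675 unnamed sites found in all 4 libraries were full in each at 457 positions and partial in each at 34. Of the 34, 16 had GAC and 24 lay on the plus strand. Their mean levels ran from 39.4% to 96.4% with a median of 80.8%, and the median SD over 4 libraries was 6.65 points. Microglia 1 had the lowest level at 19 of them. The lowest was the AAC site at position 48170839 of chromosome 9 (plus strand), at 45.9% in astrocyte 1, 55.9% in astrocyte 2, 26.5% in microglia 1, and microglia 2 had 29.2%. Its levels in the libraries labelled astrocyte were above those in the libraries labelled microglia. The marker genes of astrocyte 2 and microglia 2 ran against these labels, so this order cannot be assigned to the cell types. The nearest named-gene site on its strand was 408629 nucleotides away, in Cadm1, a cell adhesion gene.

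Other sites of this kind held close to 1 level. The AAC site at 23946311 of chromosome 19 (plus strand) had levels of 47.0%, 50%, 47.4% and 51.6%, a mean of 49.0% ± 2.18 (SD, n = 4 libraries). The GAC site at 105854759 of chromosome 5 (minus strand) had 60.3% ± 2.81 (SD, n = 4), and the one at 31205592 of chromosome 14 (minus strand) 69.0% ± 2.75 (SD, n = 4). The nearest named-gene site on the strand of each was at least 215764 nucleotides away. The GAC site at 10849268 of chromosome 16 (plus strand) spread more, at 62.7%, 81.2%, 56.2% and 77.8%. In astrocyte 2 and microglia 2 it lay 4626 nucleotides from a listed site in Gm10832. Astrocyte 1 and microglia 1 had no unnamed site counted within 10 kb of that gene's sites. The remaining 7 of the 12 lowest had means of 49.1% to 69.8% and SDs of 3.49 to 16.9 points.

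**Figure D5:**
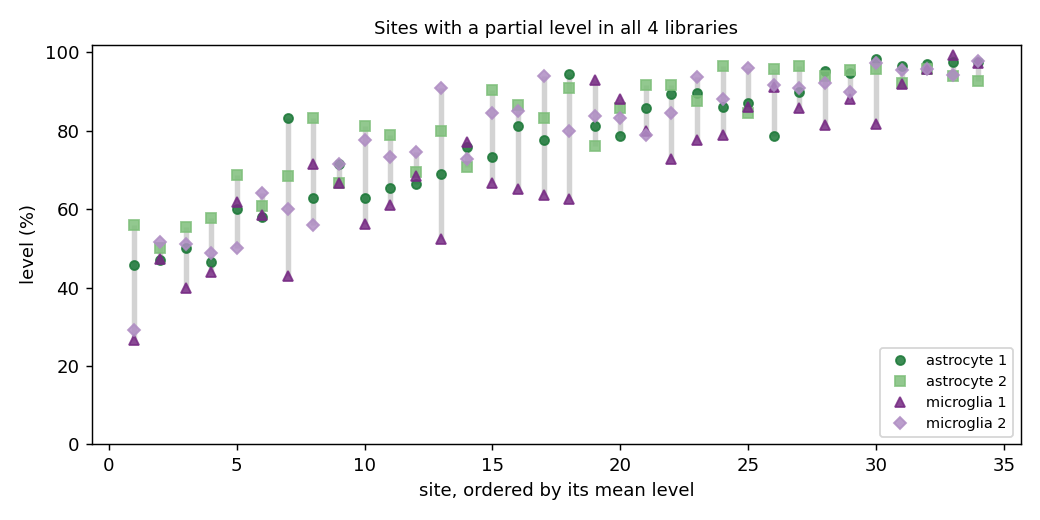
Level (y axis, percent) in each of the 4 libraries at the 34 unnamed sites that were partial in all of them, ordered by mean level along the x axis. Grey bars span the lowest to the highest library. Microglia 1 is lowest at 19 of 34 sites.

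The level at a given site was compared between types with limma on log2 odds over all sites listed in 4 libraries. Of 354 sites that could be tested, 193 were unnamed. With Benjamini-Hochberg adjustment over the 354, limma called 0 of the unnamed sites, and the percent called over all tested sites was 0%. At an unadjusted p under 0.05 there were 9 of 193 unnamed sites (4.66%), beside 4.52% of all tested sites. The other 482 of 675 unnamed sites were tied within each type and had no estimate of spread. The mean level over the 675 was 98.2% and 98.5% for the libraries labelled astrocyte, and 98.1% and 97.9% for those labelled microglia.

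The largest difference of means was at 114961212 of chromosome 11 (plus strand, AAC), where the libraries labelled astrocyte listed 83.3% and 68.4% and those labelled microglia 42.9% and 60%. The groups did not overlap, yet limma gave an adjusted p of 0.678 for a difference of 24.4 points, which was 15.9 points without microglia 1 and 40.5 points in replicate 1 alone. The site on chromosome 9 followed with 23.0 points (adjusted p = 0.678) and the one at 12380429 of chromosome 18 with 21.4 points (adjusted p = 0.678), the second of which was 12.7 points without microglia 1. In replicate 1 alone these were 19.4 and 31.9 points. At 11512300 of chromosome 12 (minus strand, AAC) both astrocyte libraries stood at 100% and the microglia libraries at 80% and 86.7%, with an adjusted p of 0.457, the lowest of any unnamed site, and the difference of 16.7 points was 20.0 points in replicate 1 alone. At 49689563 of chromosome 4 the difference came from microglia 2 alone, at 66.7% against 100% in the other 3.

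Both astrocyte libraries and neither microglia library listed 118 unnamed sites, 96 of them full in both, and both microglia libraries and neither astrocyte library listed 148, of which 122 were full. These were 1.18% and 1.48% of the distinct unnamed sites. Both counts follow the labels, against which the marker genes of astrocyte 2 and microglia 2 ran. Pairs of unlike labels held more sites of their own in 2 of 4 cases: astrocyte 1 had 581 sites with microglia 1 alone and 245 with microglia 2 alone, while astrocyte 2 had 79 and 71 with the same libraries. The lowest site listed only under the astrocyte label was at 40134461 of chromosome 10 (plus strand, AAC). It stood at 28.6% in astrocyte 1 and 33.3% in astrocyte 2, and the next stood at 63.9% on average. The lowest site listed only under the microglia label was at 58330784 of the same chromosome (plus strand, AAC). It stood at 50% in microglia 1 and 47.7% in microglia 2, 17258 nucleotides from a site in Ranbp2, a nuclear pore protein. It was followed by 63768395, at 50% and 55.6%.

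Compared as labelled, no summary of unnamed sites could pass a test between the types, since with 2 libraries against 2 the exact two-sided permutation test cannot give a p below 0.33. The clustered share was 1.66% ± 0.21 in astrocytes and 0.826% ± 0.031 in microglia (SD, n = 2 each, exact p = 0.333), the share within 10 kb of a named-gene site 5.32% ± 0.43 and 2.44% ± 2.6 (exact p = 0.333), and the share found in another library 42.6% ± 5.9 and 63.3% ± 0.49 (exact p = 0.333). The plus-strand share was 58.0% ± 1.4 in astrocytes and 60.5% ± 1.1 in microglia (exact p = 0.333). Without microglia 1 the difference within 10 kb was 1.05 points, against 2.89 points with it, and without microglia 2 it was 4.72 points. The plus-strand difference of -2.52 points was -1.51 points without astrocyte 2. Each of these 4 shares had an adjusted p of 0.667 over 8 comparisons. In each the libraries of the 2 labels did not overlap, so the direction had to be the same within replicate 1 and within replicate 2. In replicate 1 the differences were 1.002 points for the clustered share, 5.02 within 10 kb, -16.9 for the share in another library and -2.29 for the plus strand.

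The other summaries overlapped between the types. The full-level share was 76.0% ± 5.0 in astrocytes and 81.2% ± 12 in microglia (SD, n = 2 each, exact p = 1), and the difference was -17.5 points in replicate 1 and 7.13 points in replicate 2. Unnamed sites made up 43.2% ± 2.4 of the astrocyte lists and 45.5% ± 13 of the microglia lists (exact p = 1), with -13.4 and 8.72 points by replicate. GAC stood at 45.1% ± 1.0 and 42.4% ± 2.9 (exact p = 0.667), with 5.36 and -0.142 points by replicate. Because the marker genes of both replicate 2 libraries ran against their labels, these differences cannot be assigned to the cell types.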

How the data were processed

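GLORI-Tools made the site calls, as the series' design text states; the submitters' processing notes list STAR and mm39. Column 5, a fraction, was deposited by the authors as the level, and neither coverage nor p-values stand beside it. Calling thresholds and the annotation behind gene names are not stated. Libraries were of the stranded total RNA kind per the labels' protocols. Positions are the end column, 1-based. The RefSeq tables at hand are of another build and were not used.

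Sites were matched on chromosome, position and strand in Python 3.11.15 with pandas 2.3.3. Tests were exact permutations over libraries, and limma 3.58.1 (R 4.3.3) on log2 odds with levels limited to 0.01 to 0.99 and Benjamini-Hochberg adjustment at 0.05. A test on read counts was planned for the case that counts were given. Sites tied within types were not tested. The limma step was tested on simulated data. Alternatives changed the level minimum, case rule, chromosomes, full level, distances, limits, replicate block and left-out libraries.

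The members and lists were chosen with earlier results of these data known. Sites in the text follow a rule: the lowest means among sites partial in all 4 libraries, examples of the 3 clusters with most sites in each library (ties by position), the largest type differences, the lowest sites of 1 type alone and the genes with most near sites. Whether replicate numbers pair the libraries could not be established: labels give no shared animal or batch. Results for some genes that this rule names are not reported here.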

Additional observations from a re-analysis of the deposited data

How the results depend on the processing

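A total of 41 results were recomputed under up to 14 alternatives each, 310 values in all. Of these, 288 did not change sign and, where no p-value was computed, also stayed within the spread between libraries. Where a p-value was computed, the size of a change was not weighed. The type difference in the share near a named-gene site, for example, was 2.89 points within 10 kb and 11.1 points within 100 kb. Contrasts of unnamed with named-gene sites, partial with full, near with farther, and the gene's strand with the other kept the sign of their mean throughout. Not all kept 1 direction in all 4 libraries. With full level from 95%, the GAC contrast of partial with full sites gave an exact sign-flip p of 0.25. Within 1 kb, so did the near share of partial against full sites and the full-level share of near against farther sites. Limma called 0 unnamed sites in each alternative, with 0 to 9 at an unadjusted p under 0.05. Differences between types were less stable. With single libraries left out, the share of the list ran from -11.7 to 7.01 points, the full-level share from -14.0 to 3.60, the share in another library from -22.3 to -16.2 and the Jaccard difference from -7.93 to 12.01, and the level difference at 49689563 of chromosome 4 from 0 to 33.3. The replicate 1 libraries alone gave -13.4 points for the share of the list, -17.5 for the full-level share, 5.36 for GAC, 1.002 for the clustered share, 5.02 for the share within 10 kb and -8.33 for the median partial level. The replicate 2 libraries alone gave 8.72, 7.13, -0.142, 0.662, 0.750 and 0.0 in the same order. The replicate block left each difference between types as it was, for example -5.18 points for the full-level share, and its exact sign-flip test cannot give a p below 0.5; limma with the block called 0 of 193 unnamed sites. Read depth is unknown, so sites of few and many reads cannot be told apart. The causes were not tested.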
